A study of Mus musculus with 11 samples.

Results

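Non-coding RNAs were described in the chromosomal domains of 20 genes of glial stress in the mouse retina. A feature, meaning a transcribed interval of the deposited table, was taken as a member when its domain listed any of these 20 genes among the mRNAs that were higher in the knockout. All features of such a domain were taken, whatever their own change. The rule found 288 of 36097 features, or 0.798%, in 16 domains on 13 chromosomes. Of the 20 genes, 16 were listed this way, namely Gfap, Lcn2, Serpina3n, C4b, Stat3, Socs3, Fgf2, Bcl3, Osmr, Ednrb, Egr1, Jun, Junb, Atf3, Nupr1 and Steap4. The other 4, Cebpd, Fos, Il6st and Edn2, were listed by no line of the table. Of the 16 domains, 15 carried a TAD number in the table and the domain of Egr1 an interTAD number. A TAD, or topologically associating domain, is a stretch of chromosome whose parts contact each other more often than they contact their surroundings.

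Both groups were retinas of mice at postnatal day 21, with 5 libraries from wild-type animals and 6 from Nrl knockouts. Nrl is the transcription factor that sends photoreceptor precursors to the rod fate, and retinas without it hold photoreceptors of cone type in place of rods. The RNA was depleted of polyadenylated transcripts before sequencing, and for strain, knockout allele and pooling of animals the sources used here give nothing. Libraries carry replicate numbers but no animal names, so a p-value speaks of the spread among libraries, part of which may be technical. Levels of Nrl mRNA by library were not analysed here, but Nrl was among the mRNAs that the table lists as lower.

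The genes behind these domains belong to the response of Müller glia and astrocytes to a stressed retina. Cytokines of the IL-6 family, such as LIF and oncostatin M, bind receptors that include LIFR and OSMR, the receptor activates JAK kinases and the transcription factor STAT3, and STAT3 raises its own inhibitor SOCS3. Stressed photoreceptors release endothelin 2, which acts on the endothelin receptor B (Ednrb) of Müller glia, and the growth factor FGF2 rises in many models of retinal injury. Reactive glia make the filament protein GFAP and acute-phase proteins such as LCN2, SERPINA3N and complement C4, while EGR1, JUN, JUNB and ATF3 are transcription factors made within minutes to hours of a stimulus.

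The promoters of Stat3 and Socs3 are shown because a feature that was higher in the knockout starts on the opposite strand close to the RefSeq start of each gene. The sequences are from RefSeq on GRCm38.p6, written 5′ to 3′ on the strand of the gene. For Stat3 the stretch is chr11:100939541-100939790 on the minus strand, the 250 bases just before the RefSeq start of the gene. For Socs3 it is chr11:117969452-117969616 on the minus strand, which holds 165 upstream bases and leaves out the 85 nearest to the RefSeq start, where GENCODE M21 gives an exon. GENCODE M21 extends Socs3 to position 117970047, so this stretch and the start of the feature there lie inside the gene as annotated. Capitals mark a match to the STAT motif TTCNNNGAA.
Stat3: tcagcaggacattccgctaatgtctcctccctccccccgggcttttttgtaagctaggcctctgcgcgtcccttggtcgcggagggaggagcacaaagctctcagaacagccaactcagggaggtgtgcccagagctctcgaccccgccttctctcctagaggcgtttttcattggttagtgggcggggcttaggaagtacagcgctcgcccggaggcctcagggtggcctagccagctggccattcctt
Socs3: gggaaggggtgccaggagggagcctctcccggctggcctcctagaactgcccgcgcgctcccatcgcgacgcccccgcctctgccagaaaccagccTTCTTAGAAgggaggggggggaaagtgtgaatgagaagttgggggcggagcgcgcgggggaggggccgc
The Socs3 stretch held 1 such match, 146 to 154 bases before the RefSeq start, and the Stat3 stretch held none. The feature at Stat3, MSTRG.16977, begins 292 bases before the RefSeq start of Stat3 and runs away from it. The feature at Socs3, MSTRG.18014, begins 229 bases before the RefSeq start of Socs3, so its first 22 bases lie in the stretch shown. Over the 250 upstream bases of 32851 RefSeq promoters, TTCNNNGAA was found in 7.02%, and in 3 of the 14 listed genes with a promoter in that table (Steap4, Nupr1 and Socs3). The AP-1 motif TGANTCA was found in 6.75% of promoters and in 0 of these 14, and the CRX-type motif TAATCC in 6.25% and in 1 of 14 (Ednrb). Both strands were searched, a match is a description of the letters only, and no match says only that these letters were absent from the window.

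Most members were short and faint. Their median length was 214.5 bp, with a range of 100 to 22671 bp, against 235 bp over all features. By GENCODE M21, 141 members were intergenic, 105 lay antisense to a protein-coding gene, 27 lay within an annotated non-coding gene, 14 lay antisense to a non-coding gene and 1 lay on the strand of a coding gene. Values are normalised counts, that is reads divided by a size factor of the library. Libraries held 3238184 to 4876429 reads in all features of the table and 10139 to 13643 reads in members, or 0.316 to 0.378% of the reads of a wild-type library and 0.232 to 0.341% of a knockout library. The 166 members with a mean of at least 5 normalised counts over the 11 libraries were tested, and the other 122 were too faint. The limit allowed by a count of 0, taken as 3 reads, was 2.28 to 4.11 normalised counts depending on the library.

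In the knockout, 25 tested members rose, 24 fell and 117 did not pass the test (limma on log2 of the normalised count plus 1, Benjamini-Hochberg adjusted p below 0.05 over all 21395 tested features). These are 15.1% and 14.5% of the tested members, near the background of 15.6% higher and 12.6% lower over all features, and the 29.5% of members called in either direction was near the 28.1% of all features. Their median log2 difference was 0.00, and that of all tested features was -0.02. In 18 members all knockout libraries lay above all wild-type libraries, against 11.1% of all features, and in 13 all lay below, against 9.13%. Of the 166 tested members 20 rose and 17 fell by at least 2-fold, against 2746 and 2040 of all 21395 tested features. Adjacent members are not independent, since features joined within 10 kb made 17 higher and 17 lower regions. Thus the domains as wholes showed about the share of changed features found in the rest of the table. Bulk RNA cannot tell fewer cells of a type from less RNA per cell.

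**Figure D1:**
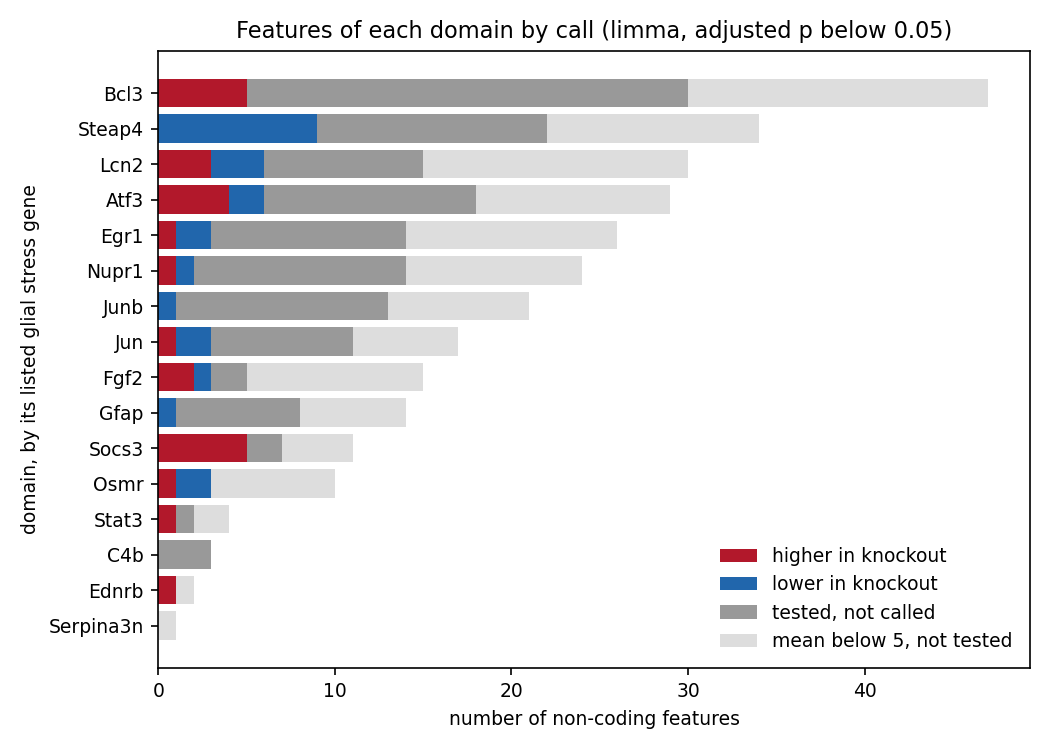
Number of non-coding features in each of the 16 domains, named on the vertical axis by the listed stress gene, with bars divided by call in the limma test; the horizontal axis counts features. The domain of Bcl3 was the largest with 47 features, the domain of Socs3 held 5 higher and no lower features, and the domain of Steap4 held 9 lower and no higher features.

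Members close to the listed gene differed from those farther away in how they were called. Of the 26 members that overlapped their listed gene or lay within 10 kb of it, 14 were tested, 10 rose and none fell, with a median log2 difference of 1.92. In the 152 tested members farther away, 15 rose and 24 fell, or 9.87% and 15.8%. At 10 to 50 kb 3 of 19 rose and 2 fell, at 50 to 200 kb 2 of 45 rose and 5 fell, and beyond 200 kb 10 of 88 rose and 17 fell. For features of other domains at the same distances from any mRNA listed as higher in their domain, the shares that rose and fell were 32.1% and 6.28% at 10 to 50 kb, 20.5% and 13.3% at 50 to 200 kb, and 16.6% and 12.1% beyond 200 kb. Without the domain of Socs3, 6 of the 10 tested members within 10 kb rose. Of the 17 near members that did not overlap the listed gene, 9 were tested and 6 rose. Of the 12 near members too faint to test, 3 passed as higher when no minimum mean was set. Several of the 14, such as those at Socs3 and Ednrb with wild-type values near 0, reached the minimum mean only through their knockout libraries, so the count among tested members is a description.

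Features near an mRNA listed as higher shared this direction elsewhere in the table too. Among 1370 tested features of other domains that lay within 10 kb of an mRNA listed as higher in their domain, 48.5% rose and 3.50% fell. When all mRNAs listed in the members' domains were used, 15 of 23 tested members within 10 kb of a higher mRNA alone rose and none fell, against 49.1% and 3.18% of all such features. Of the 10 within 10 kb of a lower mRNA alone, 2 rose and 5 fell, against 3.60% and 50.4%. The 133 near neither kind gave 8 that rose and 19 that fell, or 6.02% and 14.3%, against 13.8% and 11.2%. The mRNA lists chose the members, so these counts describe where changed features lay, and no difference in share between members and other features was tested.

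**Figure D2:**
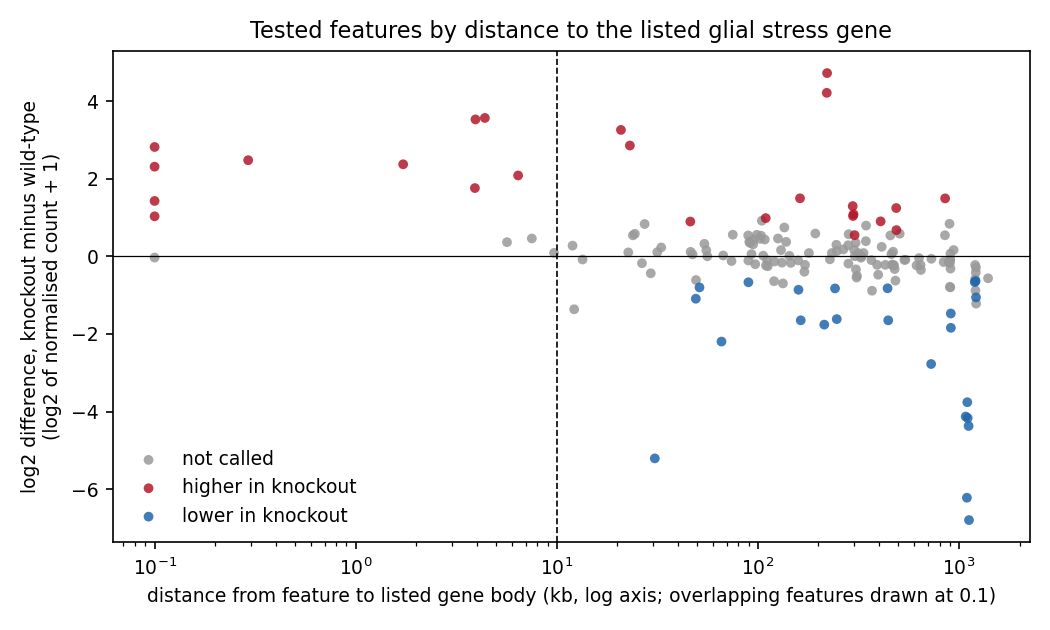
Log2 difference (knockout minus wild-type) of the 166 tested features against their distance to the body of the listed stress gene, in kb on a log axis; overlapping features are drawn at 0.1, colours give the limma call and the dashed line stands at 10 kb. Left of the line 10 of 14 features were higher and none was lower, while the lowest values, down to -6.80, lay far to the right.

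The 16 genes differed in how close the nearest member came. Overlap with the gene itself was seen for 9 members at 5 genes (Atf3, Bcl3, Ednrb, Fgf2 and Socs3), and all 9 were on the opposite strand. A member lay 292 bp from Stat3, 3.353 kb from Egr1, 7.513 kb from Junb and 13.828 kb from Nupr1. The nearest lay 30.716 kb from Lcn2, 69.302 kb from Jun, 89.502 kb from Gfap, 96.994 kb from C4b, 153.06 kb from Serpina3n, 213.265 kb from Osmr and 466.973 kb from Steap4. So for the acute-phase genes and Gfap the table held no member close to the gene. The sources used here do not say whether strand entered the counting. Reads of an overlapping gene on the other strand can therefore not be told apart from those of the feature.

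Socs3 encodes the inhibitor that binds the receptor complex and JAK kinases and ends STAT3 signalling. Its domain held 11 members, 7 of them tested, and 5 rose while none fell. The summed level of all 11 was 22.2 to 56.2 normalised counts in wild-type and 166 to 268 in knockout libraries, with means of 40.1 ± 12.1 (SD, n = 5) and 218 ± 37.1 (SD, n = 6). The groups did not overlap.

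MSTRG.18014 (mm10 chr11:117969595-117970826, plus strand) is the feature that starts in the Socs3 stretch shown above. Of its length 36.8% lay within the annotated Socs3 body, antisense to it, and 21.3% over exons. It had wild-type values of 10.97, 16.0, 2.78, 9.67 and 7.06 normalised counts, and its knockout values ran from 44.7 through a median of 71.7 to 82.0. Every knockout library lay above every wild-type library. The log2 difference was 2.82 with a standard error of 0.30 (limma, adjusted p = 2.3e-08).

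MSTRG.18018 (chr11:117974436-117975849, plus strand), intergenic and 4389 bp upstream of the Socs3 body, had 8.23, 3.76, 1.86, 5.80 and 2.02 normalised counts in wild-type. Its knockout values ran from 40.2 through 58.9 to 69.7. The wild-type libraries were at or near the limit of a few reads, and the groups did not overlap, with a log2 difference of 3.57 ± 0.30 (standard error; adjusted p = 2.77e-10). It had the largest rise of this domain.

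The other higher features around Socs3, named here after their values were seen, lay on both sides of the gene. MSTRG.18017 on the Socs3 strand, 3941 bp upstream, overlapped MSTRG.18018 at its end and was 0 in 4 of 5 wild-type libraries and 8.64 to 23.2 in the knockout. In the 9 libraries whose reads could be recovered it had 2 wild-type and 68 knockout reads, a depth-scaled ratio of 23.9 (exact 95% interval 6.37 to 201). MSTRG.18010, 1722 bp beyond the 3′ end of the gene, had 1.80 ± 0.713 (SD, n = 5) in wild-type and 13.9 ± 5.43 (SD, n = 6) in the knockout, and a log2 difference of 2.37. MSTRG.18021, 20843 bp away and antisense to an intron of Pgs1, an enzyme of cardiolipin synthesis that the table also lists as higher, went from 2.96 ± 0.992 to 37.0 ± 10.6, a log2 difference of 3.26. All 3 had no overlap between groups. A pair of faint features between them, MSTRG.18015 and MSTRG.18016, stayed below the minimum mean, with means of 0.646 and 0.664 in wild-type and 5.71 and 5.86 in the knockout.

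Stat3 encodes the transcription factor of the pathway. Its domain, which also lists Stat5a and Stat5b as higher, held 4 members and 2 tested. MSTRG.16977 (chr11:100939832-100940781, plus strand), intergenic and divergent from Stat3, had 13.7, 15.1, 7.42, 10.6 and 6.05 normalised counts in wild-type. Knockout values ran from 37.2 through 57.8 to 98.8, all above the wild-type values. The log2 difference was 2.48 ± 0.27 (standard error; adjusted p = 3.76e-08), from a mean of 10.6 ± 3.88 (SD, n = 5) to 63.3 ± 21.5 (SD, n = 6). The other tested member of the domain had a log2 difference of -0.17 and did not pass.

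Osmr encodes the oncostatin M receptor, and the 10 members of its domain all lay over 200 kb away from it, around Lifr, the LIF receptor gene that the table lists as lower. The 3 tested members moved in different directions and were chosen for naming after their values were seen. MSTRG.30519, an intergenic feature 1278 bp before Lifr, had 46.6, 26.3, 11.1, 18.4 and 13.1 normalised counts in wild-type and 0.976 to 14.1 in the knockout, so the groups overlapped slightly (log2 difference -1.76, adjusted p = 0.00182). MSTRG.30521, antisense to a Lifr intron, went from a mean of 11.04 ± 4.90 to 3.54 ± 3.45 (log2 -1.62, adjusted p = 0.00797).

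MSTRG.30528, a 10908 bp feature antisense to Lifr with 14.4% of its length over exons, was higher instead. Its wild-type values were 244, 233, 230, 191 and 210 normalised counts and its knockout values 257 to 399 with a median of 324. The groups did not overlap, with a log2 difference of 0.55 and an adjusted p = 0.0121 that became 0.0587 when limma was run with neither trend nor robust fitting. Hence within 1 gene body antisense features moved both ways. The nearest member to Osmr, MSTRG.30518, was too faint to test, with means of 4.397 in wild-type and 1.06 in the knockout.

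Bcl3 encodes an atypical IκB protein that acts with NF-κB subunits and is induced by STAT3. Its domain, which also lists Relb, Fosb and Apoe as higher, held 47 members, the most of the 16. Of 30 tested, 5 rose and none fell, and the median log2 difference was 0.10. MSTRG.78354 (chr7:19816615-19820090, plus strand) overlapped Bcl3 antisense and lay 57.9% within the annotated antisense gene Gm16174. In wild-type it had 86.4, 91.3, 87.2, 58.0 and 116 normalised counts, and the knockout values ran from 141 through 177 to 222, without overlap. The log2 difference was 1.03 ± 0.19 (standard error; adjusted p = 7.11e-05), a ratio of means of 2.03.

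The largest rise in the Bcl3 domain was far from Bcl3. MSTRG.78198 (chr7:18955173-18955555, minus strand), antisense to an intron of Nova2, a neuronal splicing factor gene 852907 bp from Bcl3, went from 2.74, 2.82, 2.78, 7.74 and 5.04 normalised counts to a range of 10.6 to 18.7 (log2 1.49, adjusted p = 7.9e-04). The other 3, named after their values were seen, had overlapping groups. MSTRG.78266, 9118 bp from Fosb, had a log2 difference of 0.68, and MSTRG.78268 had 1.25. MSTRG.78294, antisense to Klc3, had 0.90. MSTRG.78268 lost its call under DESeq2 and under limma on 9 libraries, with an adjusted p of up to 0.057. MSTRG.78266 lost its call in 15 alternatives, among them leaving out any of 9 libraries (wild-type replicates 2 to 5 and knockout replicates 1, 2, 3, 4 and 6), with an adjusted p of up to 0.317, and MSTRG.78294 lost it in 8, among them leaving out wild-type replicate 2 or 5 or knockout replicate 1, 2 or 4, with an adjusted p of up to 0.122. The most abundant member of the domain, MSTRG.78271 in D830036C21Rik, had 559 ± 78.1 (SD, n = 5) and 479 ± 78.4 (SD, n = 6) and did not pass (adjusted p = 0.334). The faint members at Bcl3, MSTRG.78353 and MSTRG.78358, had means of 2.73 and 2.27 in wild-type and 5.54 and 2.71 in the knockout and were not tested.

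Fgf2 encodes a growth factor that promotes photoreceptor survival. Of the 15 members of its domain 5 were tested, 2 rose and 1 fell. All 3 members that overlapped Fgf2 were antisense to its introns. MSTRG.55708 (chr3:37353966-37354784, minus strand) had 6.86, 8.47, 6.50, 8.71 and 3.03 normalised counts in wild-type, and 24.9 through 36.8 to 49.9 in the knockout. These groups did not overlap, with a log2 difference of 2.31 ± 0.28 (standard error; adjusted p = 1.79e-07). MSTRG.55709 had 0 to 6.05 in wild-type and 3.32 to 17.7 in the knockout, so its groups overlapped (log2 1.43, adjusted p = 0.0351). Its call was lost in 7 of the alternatives, among them leaving out wild-type replicate 2, 3 or 4 or knockout replicate 1, 2 or 6, with an adjusted p of up to 0.131 without wild-type replicate 4. MSTRG.55711 was too faint to test, with means of 2.18 and 4.86.

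The summed level of all 15 members of the domain was lower in the knockout, with 408 to 702 normalised counts in wild-type and 147 to 234 in the knockout. The means were 551 ± 125 (SD, n = 5) and 177 ± 32.5 (SD, n = 6), and the groups did not overlap. A single member carried this difference. Without the most abundant member the other 14 summed to 75.1 ± 12.9 and 108 ± 20.9, and the groups overlapped.

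Ednrb encodes the receptor for endothelins on Müller glia and astrocytes. Its domain held only 2 members, both on the plus strand, opposite to the gene. MSTRG.29666 (chr14:103850824-103867466), an intergenic feature of 16643 bp that began 6422 bp upstream of the gene, was named after its values were seen. Its wild-type values were 5.49, 1.88, 0.928, 0.967 and 2.02 normalised counts and its knockout values 6.07 through 10.2 to 20.2. The groups did not overlap, but the levels were low for so long a feature (log2 2.09, adjusted p = 1.7e-04). MSTRG.29664, inside an intron of Ednrb, was not tested, with 0 to 2.74 in wild-type and 1.66 to 14.6 in the knockout.

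**Figure D3:**
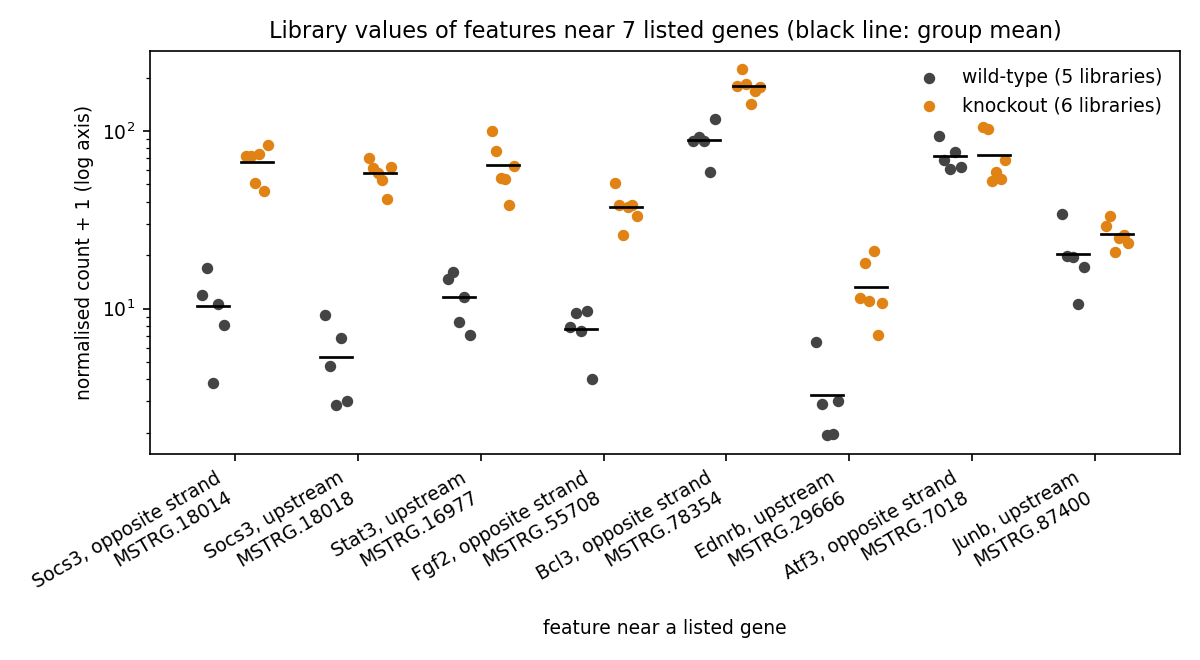
Normalised count plus 1, on a log axis, of 8 features near 7 listed genes in each wild-type (dark) and knockout (orange) library, with group means as black lines. The features at Socs3, Stat3, Fgf2, Bcl3 and Ednrb had no overlap between groups, whereas those at Atf3 and Junb overlapped.

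Atf3 encodes a stress-induced transcription factor and its domain held 29 members, of which 18 were tested, 4 rose and 2 fell. MSTRG.7018 (chr1:191183496-191185350, plus strand), antisense to an Atf3 intron, had 93.3, 67.8, 60.3, 75.4 and 61.5 normalised counts in wild-type and 51.5 through 62.5 to 104 in the knockout. The groups overlapped throughout, with a log2 difference of -0.03 ± 0.22 (standard error; adjusted p = 0.943). MSTRG.7020, 5654 bp upstream, also did not pass, with means of 17.4 ± 9.16 and 20.9 ± 7.96 (adjusted p = 0.499). MSTRG.7017 inside the gene was too faint to test, with means of 3.84 and 3.39. Among the 4 that rose, MSTRG.7029, named after its values were seen, lost its call in 9 alternatives. These included edgeR, DESeq2, the authors' deposited table and leaving out wild-type replicate 2 or 5, with an adjusted p of up to 0.324.

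Farther upstream of Atf3 a long and a short feature on opposite strands of the same place differed. MSTRG.7022 (chr1:191231470-191244099, plus strand), the most abundant member of this domain, had 1289, 1248, 1234, 1200 and 1192 normalised counts in wild-type and 1004 to 1334 in the knockout (log2 -0.08, adjusted p = 0.728). MSTRG.7023 (chr1:191241124-191242310, minus strand), which lies wholly inside it and was named after its values were seen, had 4.11, 8.47, 4.64, 7.74 and 8.07 in wild-type and 36.5 through 50.9 to 72.8 in the knockout. Only the minus-strand feature of this pair passed the test, with a log2 difference of 2.86 ± 0.26 (standard error; adjusted p = 1.24e-09).

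The largest rise of any member lay 220842 bp from Atf3, at the long intergenic RNA gene Gm32200. MSTRG.7049 (chr1:191438881-191439621, plus strand), antisense to Gm32200, was 0 in all 5 wild-type libraries and 13.3 through 25.6 to 51.0 in the knockout. In the 9 libraries whose reads could be recovered it had 0 wild-type and 144 knockout reads, at least 27.1-fold higher in the knockout by the exact 95% lower limit of the depth-scaled ratio (33.7-fold against a floor of 3 reads over the wild-type group). MSTRG.7048, beside it on the strand of Gm32200, was named after its values were seen and had 0.379 ± 0.519 (SD, n = 5) and 23.9 ± 6.62 (SD, n = 6). Both passed the test, with adjusted p = 1.45e-10 and 5.76e-10. MSTRG.7051, farther along the same non-coding gene, fell instead, from 51.8 to 26.6 on average (log2 -0.83, adjusted p = 0.018), a call lost without wild-type replicate 1 or 2, with an adjusted p of up to 0.0687. MSTRG.7014, the largest fall of the domain, went from a mean of 17.7 to 8.40 with overlap (adjusted p = 0.0275) and lost its call without wild-type replicate 1, 2 or 5 or knockout replicate 1 or 5, with an adjusted p of up to 0.0787, and in the authors' deposited table.

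Egr1 encodes a zinc-finger transcription factor that responds to growth factor signals. Its domain held 26 members, and of 14 tested 1 rose and 2 fell. MSTRG.42184, an intergenic feature 3916 bp upstream of Egr1 on the same strand, had 9.60, 0, 6.50, 6.77 and 0 normalised counts in wild-type and 7.58 to 20.2 in the knockout. Its groups overlapped (log2 1.76, adjusted p = 0.0141), and the call was lost without wild-type replicate 2 (adjusted p = 0.0666) or wild-type replicate 5 (adjusted p = 0.0567) and under edgeR (adjusted p = 0.181) and DESeq2 (adjusted p = 0.244). Closer still, MSTRG.42185 was too faint to test, with means of 1.52 and 3.12.

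The Egr1 domain also held the most abundant member of all. MSTRG.42209, a feature of 19026 bp that began 89706 bp beyond Egr1, had 5320, 4280, 4627, 3992 and 4363 normalised counts in wild-type and 2413 through 2879 to 3250 in the knockout. Every knockout library was lower, with a log2 difference of -0.67 ± 0.14 (standard error; adjusted p = 3.85e-04). MSTRG.42174, antisense to Kdm3b, a histone demethylase gene, fell from 131 ± 30.7 to 27.5 ± 5.39 (log2 -2.20, adjusted p = 3.2e-09).

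Jun and Junb encode subunits of AP-1. In the domain of Jun, 1 of 11 tested members rose and 2 fell. MSTRG.62498 within Junos, an annotated non-coding gene on the strand opposite to Jun, had 19.2, 15.1, 10.2, 9.67 and 8.07 normalised counts in wild-type and 12.7 to 37.4 in the knockout, with overlap (log2 0.99, adjusted p = 0.013, which became 0.051 in limma on 9 libraries). MSTRG.62552, 910849 bp away at 9530080O11Rik and the most abundant of the domain, fell from 42.1 ± 23.4 to 11.2 ± 7.14 (log2 -1.84, adjusted p = 3.74e-04). The other that fell, MSTRG.62551, named after its values were seen, lost its call without wild-type replicate 2 (limma, adjusted p = 0.0507). The feature nearest to Jun, MSTRG.62490, was too faint to test, with means of 3.15 and 4.52.

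In the domain of Junb, none of 13 tested members rose and 1 fell, and 1 of its 21 members also lay in the next domain. MSTRG.87400 (chr8:84986231-84986908, plus strand), 7513 bp upstream of Junb, had 32.9, 18.8, 18.6, 9.67 and 16.1 normalised counts in wild-type and 19.9 through 24.5 to 32.3 in the knockout. The groups overlapped and the feature did not pass (log2 0.46, adjusted p = 0.233). MSTRG.87360 fell from 17.1 ± 4.15 to 9.47 ± 4.85 (adjusted p = 0.0392), a call lost in 12 alternatives, among them leaving out wild-type replicate 1, 3, 4 or 5 or knockout replicate 3, 4, 5 or 6, with an adjusted p of up to 0.146. MSTRG.87366 in 1700122E12Rik, the most abundant, had means of 56.0 and 76.0 and did not pass (adjusted p = 0.19). This feature passed without wild-type replicate 1 (adjusted p = 0.0229) and with the replicate number as a block (adjusted p = 0.0157).

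Gfap encodes the intermediate filament of astrocytes and of reactive Müller glia, and its domain gave 1 lower and no higher feature among 8 tested. The nearest member, MSTRG.17201 in Gm26668, 89502 bp away, had 15.9 ± 2.56 (SD, n = 5) and 24.6 ± 9.10 (SD, n = 6) and did not pass (adjusted p = 0.155). MSTRG.17210 (chr11:103064185-103064992, minus strand), antisense to Nmt1 and 5312 bp from Plcd3, an mRNA listed as lower, had 48.0, 35.8, 39.9, 29.99 and 29.3 normalised counts in wild-type and 4.80 through 10.5 to 20.7 in the knockout. The groups did not overlap (log2 -1.65, adjusted p = 5.97e-05). The most abundant member, MSTRG.17234, had 99.4 ± 27.4 and 91.7 ± 19.4 and did not pass (adjusted p = 0.794).

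Lcn2 encodes lipocalin 2, an iron-siderophore binding protein of reactive glia. Its domain held 30 members, and of 15 tested 3 rose and 3 fell. The nearest, MSTRG.48372 (chr2:32418968-32419948, plus strand), lay antisense to Slc25a25, a mitochondrial ATP-Mg/phosphate carrier gene that the table lists as lower, with 16.2% of its length over exons. Its wild-type values were 111, 62.1, 52.9, 51.3 and 36.3 normalised counts, and its knockout values ran from 0 through 0.379 to 4.04. The feature was nearly absent in the knockout, with a ratio of the 11-library means of 65.4. Over all 11 libraries limma gave a log2 difference of -5.21 (adjusted p = 8.66e-11). Knockout 2, the library with the highest of these values, is not among the 9 libraries of recovered reads. Those 9 held 257 wild-type and 2 knockout reads of the feature, a depth-scaled ratio of 183 (exact 95% interval 50.1 to 1517).

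The 3 features of the Lcn2 domain that rose lay side by side beyond the start of Fam78a, an mRNA also listed as higher. MSTRG.48328, 2915 bp from it, had 8.23, 6.59, 14.8, 13.5 and 7.06 normalised counts in wild-type and 16.6 to 32.2 in the knockout (log2 1.3, adjusted p = 6.16e-04). MSTRG.48327 and MSTRG.48326, named after their values were seen, had log2 differences of 1.04 and 1.09. The call of MSTRG.48326 was lost under edgeR, DESeq2 and limma on the 9 libraries of recovered reads, with an adjusted p of up to 0.103.

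The domains of Serpina3n and C4b, acute-phase and complement genes, held almost nothing to measure. The only member of the Serpina3n domain was the Serpina3h pseudogene, ENSMUSG00000041449.16, with 0 to 4.11 normalised counts in wild-type and 2.08 to 12.1 in the knockout. It was too faint to test, and as a member of a multigene family its reads are uncertain. The 3 members of the C4b domain were tested and none passed. The nearest to C4b, MSTRG.38959 antisense to Prrt1, had 8.91 ± 3.22 (SD, n = 5) and 8.35 ± 4.202 (SD, n = 6), with an adjusted p = 0.776.

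Nupr1 encodes a small stress-induced chromatin protein, and of 14 tested members of its domain 1 rose and 1 fell. MSTRG.83526 (chr7:126682084-126684797, minus strand), intergenic and the most abundant, had 149, 125, 130, 135 and 153 normalised counts in wild-type and 62.2 through 84.2 to 90.5 in the knockout, without overlap (log2 -0.80, adjusted p = 6.24e-04). MSTRG.83553, 4360 bp from Fam57b, rose from 5.66 ± 2.95 to 16.8 ± 8.83 (log2 1.5, adjusted p = 0.00391), although Fam57b is listed as lower. The nearest to Nupr1, MSTRG.83514, had means of 3.94 and 1.27 and was not tested.

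Steap4 encodes a metalloreductase of acute-phase cells, and its domain held 34 members, the nearest of them 466.973 kb away from Steap4. Of 22 tested, none rose and 9 fell, with a median log2 difference of -0.61. The summed level was 802 to 1170 normalised counts in wild-type and 319 to 467 in the knockout, without overlap, with means of 956 ± 135 (SD, n = 5) and 392 ± 48.9 (SD, n = 6). The nearest member, MSTRG.66109, did not pass, with 19.8 ± 8.10 and 16.3 ± 4.70 (adjusted p = 0.654).

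The fall of the Steap4 domain came mostly from a run of 11 features within 58.4 kb (chr5:6823322-6881696), all on the plus strand and antisense to Zfp804b, a zinc-finger protein gene. The run lay 463 to 521 kb from the start of Zfp804b, toward its 3′ end. Its summed level was 313 to 483 normalised counts in wild-type with a median of 413, and 0 to 7.28 in the knockout with a median of 3.44. The 11 were set apart from the other features in Zfp804b by their low knockout means, after the values were seen. Their direction, and the contrast with the others, therefore follow largely from that choice and are descriptions. All 6 tested features of the run fell, with log2 differences of -6.80 to -3.76. The 5 faint ones had means of 5.26 to 10.2 in wild-type and 0.126 to 1.08 in the knockout. The 4 other features in Zfp804b lay nearer to its start, over 308 kb, and had log2 differences of -0.22 to 0.16, none of which passed.

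Within the run, MSTRG.66052 (chr5:6835133-6839037) had the largest fall of any member. It had wild-type values of 155, 120, 166, 157 and 186 normalised counts, and its knockout values were 0 at the lowest and the median and 3.32 at the highest. In the 9 libraries of recovered reads it had 581 wild-type and 5 knockout reads, a depth-scaled ratio of 165 (exact 95% interval 70.4 to 511). Over all 11 libraries limma gave a log2 difference of -6.80 (adjusted p = 2.6e-14). MSTRG.66065 (chr5:6862387-6865703), named after its values were seen, went from 126 ± 23.7 to 0.808 ± 0.771. Beyond the 3′ end of Zfp804b, 15 intergenic features on the minus strand were less affected. Of 9 tested there 3 fell, and all 9 had log2 differences between -1.22 and -0.22. Among the 3, MSTRG.66043, named after its values were seen, lost its call in 13 alternatives, among them edgeR, DESeq2, the authors' deposited table and leaving out wild-type replicate 2, 3 or 5 or knockout replicate 1, 2, 3 or 6, with an adjusted p of up to 0.175. The most abundant, MSTRG.66047, went from 120 ± 29.8 to 74.1 ± 11.2 (log2 -0.66, adjusted p = 0.0122), a call lost under edgeR (adjusted p = 0.0691) and DESeq2 (adjusted p = 0.0519).

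**Figure D4:**
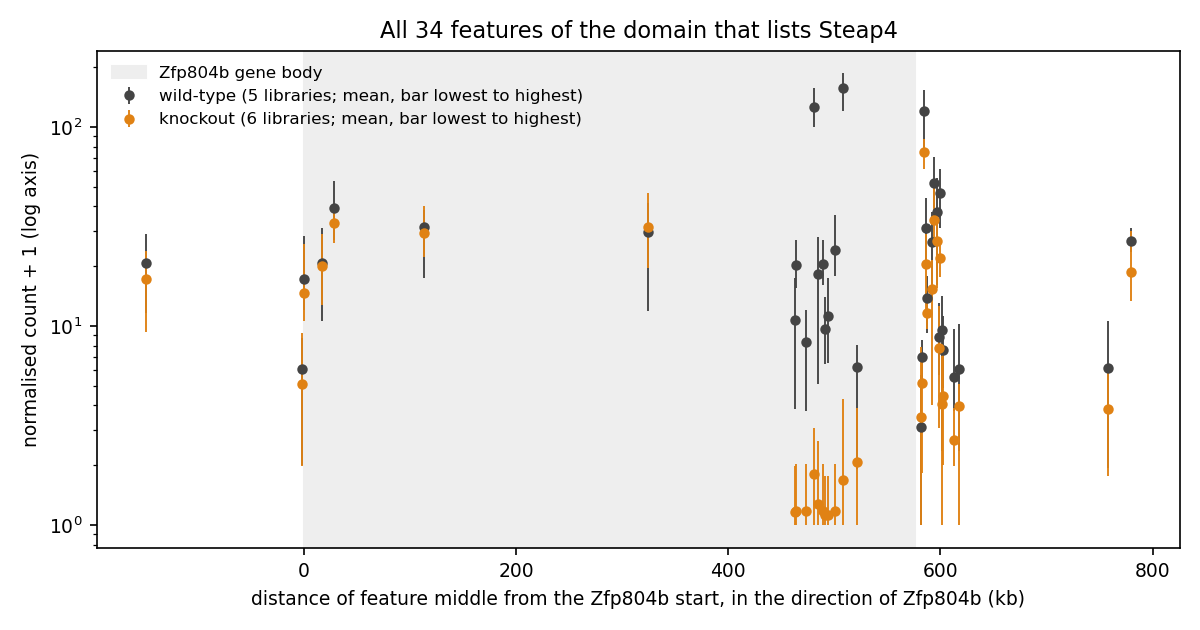
Mean normalised count plus 1 (log axis; bars from the lowest to the highest library) of the 34 features of the Steap4 domain against distance from the Zfp804b start in kb, with the Zfp804b body shaded. Between 463 and 521 kb all 11 features were near 0 in the knockout (orange), while the 4 features closer to the start lay at similar levels in both groups. The 11 were set apart by their low knockout means, so this contrast is a description.

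Summed over all its features, a domain's direction did not have to match that of its listed gene. The sum was higher without overlap between groups in the domains of Socs3, Stat3 (22.9 ± 4.58 to 77.9 ± 25.2) and Ednrb (3.18 ± 3.05 to 18.5 ± 8.45). It was lower without overlap in the domains of Steap4, Fgf2 and Egr1 (5305 ± 588 to 3576 ± 412). Single features carried some of these sums. Without the most abundant member of each domain the sums of Fgf2 (given above), Egr1 (789 ± 107 and 729 ± 71.3) and Stat3 (12.3 ± 3.37 and 14.6 ± 5.38) overlapped between groups. That of Ednrb also overlapped, with 0 to 2.74 in wild-type and 1.66 to 14.6 in the knockout. Those of Socs3 (30.8 ± 12.2 and 152 ± 28.9) and Steap4 (836 ± 109 and 318 ± 43.4) did not overlap. In the domain of Osmr the sums of all members overlapped, with 241 to 331 in wild-type and 284 to 431 in the knockout. Without its most abundant member the Osmr sum was lower without overlap, with 41.4 to 86.4 in wild-type and 16.3 to 31.2 in the knockout. In the domains of Atf3, Bcl3 and Gfap the sums of all members overlapped, with means of 1668 and 1682, 1677 and 1875, and 307 and 294 normalised counts. These sums are descriptions and were not tested.

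**Figure D5:**
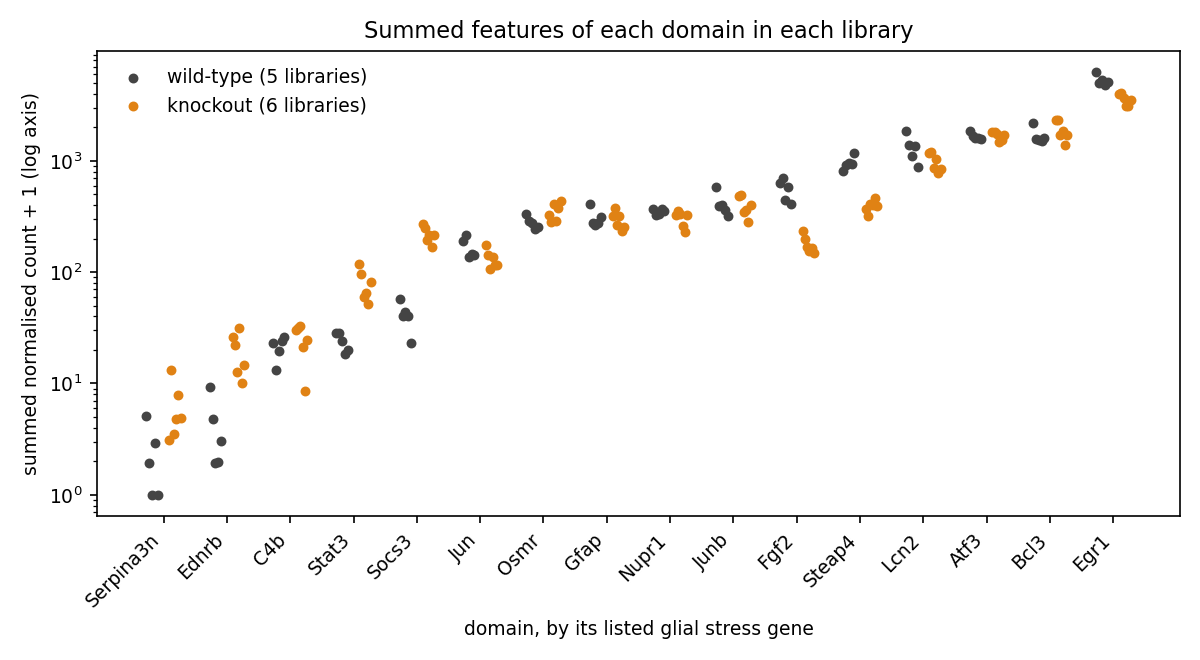
Summed normalised count plus 1 (log axis) of all features of each domain in each wild-type (dark) and knockout (orange) library, ordered by level. The sums of Ednrb, Stat3 and Socs3 stood higher and those of Fgf2, Steap4 and Egr1 lower in every knockout library.

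Wider gene lists gave the setting of these domains, with directions taken from the table's own mRNA lists. The lists of this paragraph also hold genes whose listing as higher chose the members, so their counts partly restate that choice. For the counts of features below, 15.6% of all tested features rose and 12.6% fell. Within 10 kb of a higher mRNA alone these shares were 49.1% and 3.18%. No difference from these shares was tested. Of 25 genes of the IL-6 family and JAK-STAT pathway, 11 were listed as higher (among them Lif, Il6ra, Osmr, Stat3, Socs3 and Cebpb) and Lifr as lower. Of the 11 tested features that overlapped these 25 genes, 7 rose and 2 fell, with a median log2 difference of 1.03. Members described above, at Bcl3, Lifr and Socs3, were among these features. At Cebpd, which no line listed, the single overlapping feature rose with a log2 difference of 1.84. Of 24 reactive glia and acute-phase genes 18 were listed as higher and Bdnf as lower. Of 12 tested features over them 3 rose, and 2 of these were the members at Fgf2 described above. Of 17 immediate early genes 8 were listed as higher, and 1 of 5 tested features over them rose. Of 7 endothelin genes, Ednrb and Ece1 were listed as higher and Edn1 and Edn3 as lower, and both tested features over them rose.

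Markers of other cells also differed between the groups. Of 12 rod genes 11 were listed as lower and of 10 cone genes all 10 as higher. The features over rod genes summed to 2941 to 5169 normalised counts in wild-type and 486 to 815 in the knockout, and those over cone genes to 332 to 380 and 1180 to 1793. Of 14 microglial genes 11 were listed as higher, of 12 Müller glia genes Vim, Clu, Apoe and Aldh1l1, of 4 astrocyte genes Agt, and of 8 vascular genes Vwf. None of the 3 tested features over microglial genes and the 1 over Müller glia genes passed, and their part in the changes of the members was not tested.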

How the data were processed

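The deposited table gives, per the file headers, a signal per feature and library that the authors made by DESeq2 normalisation of read counts. It covers 36097 unique features on mm10, of which 83 have 2 lines and were used 1 time. Tools named in the submitters' processing notes are TopHat2 2.0.10, Cufflinks 2.2.1 and Cuffdiff, and the builds named are mm9 and mm10; their roles, the assembler, the counting tool and the making of domains and mRNA lists are not stated. The table also holds the authors' own comparison (deposited log2 fold change, score, p-value and its adjusted form, per the file headers), whose calls alone are used, as an alternative.

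The members and gene lists were chosen with earlier results of these data known. Testing used R 4.3.3 and limma 3.58.1, with trend and robust set, on log2 of the normalised count plus 1, where the mean over 11 libraries reached 5, with Benjamini-Hochberg adjustment over 21395 features. A fold change on this scale understates the change of faint features. Data were simulated for 21395 features, of which 200 were changed, at a dispersion (spread beyond counting error) of 0.05. There limma recovered 62 of 66 changes of 4-fold, 15 of 74 of 2-fold and 4 of 60 of 1.5-fold, with 4 false calls. Reads were recovered as whole multiples of the worth of 1 read. Of the values 100% were whole within 0.001 times their number of reads, a limit that large counts always meet. The tools edgeR 4.0.16 and DESeq2 1.42.0 were run on the reads of 9 libraries. In the other 2, 1 read is worth about 1 normalised count and the recovery could not be checked. Other alternatives were pseudocounts of 0.5 and 10, no minimum mean or one of 20, rescaled libraries, no trend or robust fitting, a replicate block, and leaving out each library. Counting intervals are exact and, like floors, cover counting error only. Positions count from 1, and places follow GENCODE M21.

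Named features were, per domain, those overlapping the listed gene, the called feature with the largest rise and the largest fall, the most abundant and the closest to the gene's start. The rise, fall and abundance parts applied to domains with at least 5 tested members, since all parts together gave over 40. They gave 44 features, 2 of which are not reported here.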

Additional observations from a re-analysis of the deposited data

Results flagged for a closer look

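Among the named features, 87 groups of 5 or 6 libraries were checked for a library far from the others, and chance alone would mark about 1 in 20 groups. It happened in 4, each time the highest knockout library. For MSTRG.87360 in the Junb domain knockout 1 had 18.7 normalised counts, and the next library 11.1. For MSTRG.48372, antisense to Slc25a25 in the Lcn2 domain, knockout 2 had 4.04 and the next 0.960. For MSTRG.83553 in the Nupr1 domain knockout 2 had 34.3 and the next 16.3. For MSTRG.66052 in the Zfp804b run knockout 3 had 3.32 and the next 0.758, so both near-absent features had their largest residual signal in a single library.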

How the results depend on the processing

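The counts of 25 higher and 24 lower members stayed within 1.5 times under every alternative except a minimum mean of 20, which tested 68 members and called 10 higher and 15 lower. At that minimum 1722 of all 8266 tested features were higher and 1628 were lower. Leaving out each library in turn gave 20 to 27 higher and 20 to 25 lower. With no minimum mean 30 were higher and 33 lower, against 21.1% of all features called. edgeR gave 20 and 22, DESeq2 19 and 22, and limma on the same 9 libraries, an alternative chosen after seeing the data, 18 and 22. The authors' deposited table called 28 higher and 29 lower, against 19.4% of all its features, and shared 44 of the 49 calls. With the replicate number as a replicate block (numbers 1 to 5) the counts were 29 and 28; the same-numbered libraries deviated together with r of 0.294, 0.00135, 0.123, 0.0512 and 0.273, so the numbers were not taken to pair the libraries. Of the 49 called members 34 kept their call in every alternative that tested them and 15 lost it in at least 1. Over the named features and their alternatives 734 values kept their side of the threshold, 34 no longer passed, 2 newly passed and none reversed. The 2 were MSTRG.87366 under the replicate block (adjusted p = 0.0157) and without wild-type replicate 1 (adjusted p = 0.0229). In the simulation limma recovered 4 of 60 changes of 1.5-fold and 15 of 74 of 2-fold. The simulation changed 200 of 21395 features at a single dispersion of 0.05, whereas 6022 features were called in the real data. Changes of that size may thus have gone uncalled here, at a rate that the simulation does not give.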
